A study of Sus scrofa with 18 samples.

Results

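The genes described here encode the proteasome and the protein folding machinery of the cell: proteasome subunits with their activators and inhibitor, the cytosolic chaperonin TRiC, the mitochondrial chaperonin, the heat shock proteins and the J-domain proteins. They were chosen by symbol (PSMA to PSMF, CCT, TCP1, HSP, DNAJ and CRYAB, without the immunoproteasome genes PSMB8, PSMB9 and PSMB10), and 89 genes matched among 6765 named genes on the array. Each was taken at its brightest probe set, the group of short probes that stands for a transcript. Of the 89 genes, 87 were bright enough to be tested, among 5710 tested named genes in all. The dim genes were HSPB3, a small heat shock protein, and DNAJC9, a J-domain protein that binds histones. HSPBP1, an exchange factor for HSP70, matched by its symbol only and was counted among the members but in no family. PSMD5 and PSMD10, which help to assemble the proteasome, were counted among its subunits by their symbols.

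Retinas of 18 male domestic piglets from a Landrace and Large White cross were taken at postnatal day 38, and the RNA of each was hybridised to an Affymetrix pig array of its own. The piglets entered the study at 3 days of age and were assigned to the diets at random. The control group of 9 received pig milk replacer at a basal level. The other 9 received pig milk replacer supplemented with sialyllactose, an oligosaccharide of milk that carries sialic acid. Values are log2 levels, so that a difference of 1 is a 2-fold change, and each retina is a whole tissue, in which fewer cells of a type and less RNA per cell cannot be told apart. Replicates are separate animals, and no litter, array batch or scan date is given.

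The 26S proteasome breaks down proteins marked with ubiquitin. Its 20S core is a barrel of alpha and beta rings, and some of the beta subunits carry the cutting sites. The 19S cap has a ring of ATPases, which unfold the substrate, and non-ATPase subunits, which bind and remove ubiquitin. Chaperones act before breakdown: HSP70 with its J-domain partners binds unfolded stretches, HSP90 matures signalling proteins, TRiC folds actin and tubulin, and small heat shock proteins hold unfolded proteins in solution. In the retina, photoreceptors make and renew large amounts of membrane protein, and CRYAB (alpha B-crystallin) is a small heat shock protein known from the lens and from glia.

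Correlations between arrays over all tested probe sets lay between 0.981 and 0.992. Among retinal markers SAG, rod arrestin, was at 10.7 ± 0.10 in the control retinas and 10.6 ± 0.17 in the supplemented ones (means ± SD on the log2 scale over 9 retinas a diet, as in all such pairs of values) and GLUL, the glutamine synthetase of Mueller glia, at 10.6 ± 0.22 and 10.5 ± 0.31. Others lay low, such as the rod channel gene CNGA1 at 3.19 ± 0.45 and 3.47 ± 0.21, and the 10 tested Mueller glia markers ran from 2.00 to 10.5. The only tested gene of the lens list, CRYBB1, lay near the floor at 1.79 ± 0.50 and 1.66 ± 0.29. Control replicate 2 stood apart, with a median correlation of 0.983 to the other arrays. The difference between the 3' and 5' probe sets of actin, a measure of RNA integrity that rises as RNA breaks down, was 3.15 ± 0.25 in control and 3.27 ± 0.28 with sialyllactose. It was highest in sialyllactose replicate 3 (3.80) and control replicate 9 (3.68), and several chaperone values below are lowest in that control retina. Sialyllactose replicate 3 was highest of all retinas in CCT2 (7.21) and lowest of all in HSP90AA1 (10.96). The correlation of the actin difference with the chaperonin subunits ran from -0.69 for CCT4 to -0.21 for TCP1, with -0.27 for CCT2. The part of RNA integrity in these values was not tested.

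The first comparison asked whether any of these genes differed between the diets. None of the 87 tested genes had a limma adjusted p under 0.05, where 0% of all 16799 tested probe sets did, and the lowest adjusted p among them was 0.691. An unadjusted p under 0.05 was found for 4 genes, where 5.62% of all tested named genes and 6.3% of all probe sets fell under that value: PSMC1, CRYAB and DNAJC14 with lower means on sialyllactose (3.47% of all genes) and HSPB11 with a higher mean (2.15%). The groups overlapped in all 87 genes, as in all 5710. All 9 sialyllactose retinas lay below the control median in 3 genes (PSMC1, CRYAB and HSPA4), against 2.92% of all genes, and above it in 1 (HSPB11), against 1.47%. In 85 genes the 95% interval reached no farther than 1.5-fold either way, and in 73 no farther than 1.2-fold.

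Means were lower with sialyllactose in 63 of the 87 genes and higher in 24, or 72.4% lower against 56.7% of all tested named genes and 63.5% of those of similar level. Genes of similar level here and below are the 2100 tested named genes between the quartiles of all members in mean level, 4.69 to 7.12. This split depended on scaling: with each array centred on its median 53 were lower (60.9%, against 46.6% of all genes and 51.4% of those of similar level), and after a further quantile normalization 54 were lower (62.1%, against 49.9% and 51.4%). Among the 31 proteasome subunits 27 were lower (23 and 24 under these scalings), with a median difference of -0.03 (-0.01 and -0.01). Among the 50 chaperones and cochaperones 31 were lower (25 and 25), with a median of -0.02 (-0.001 and 0.001). The median over all tested named genes was -0.01, and over genes of similar level it was -0.02. Without single retinas the number of lower members ran from 57 (without control replicate 3) to 67 (without control replicate 9). With the actin 3' to 5' difference as a covariate 57 members were lower (65.5%, against 56.4% of all genes).

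**Figure D1:**
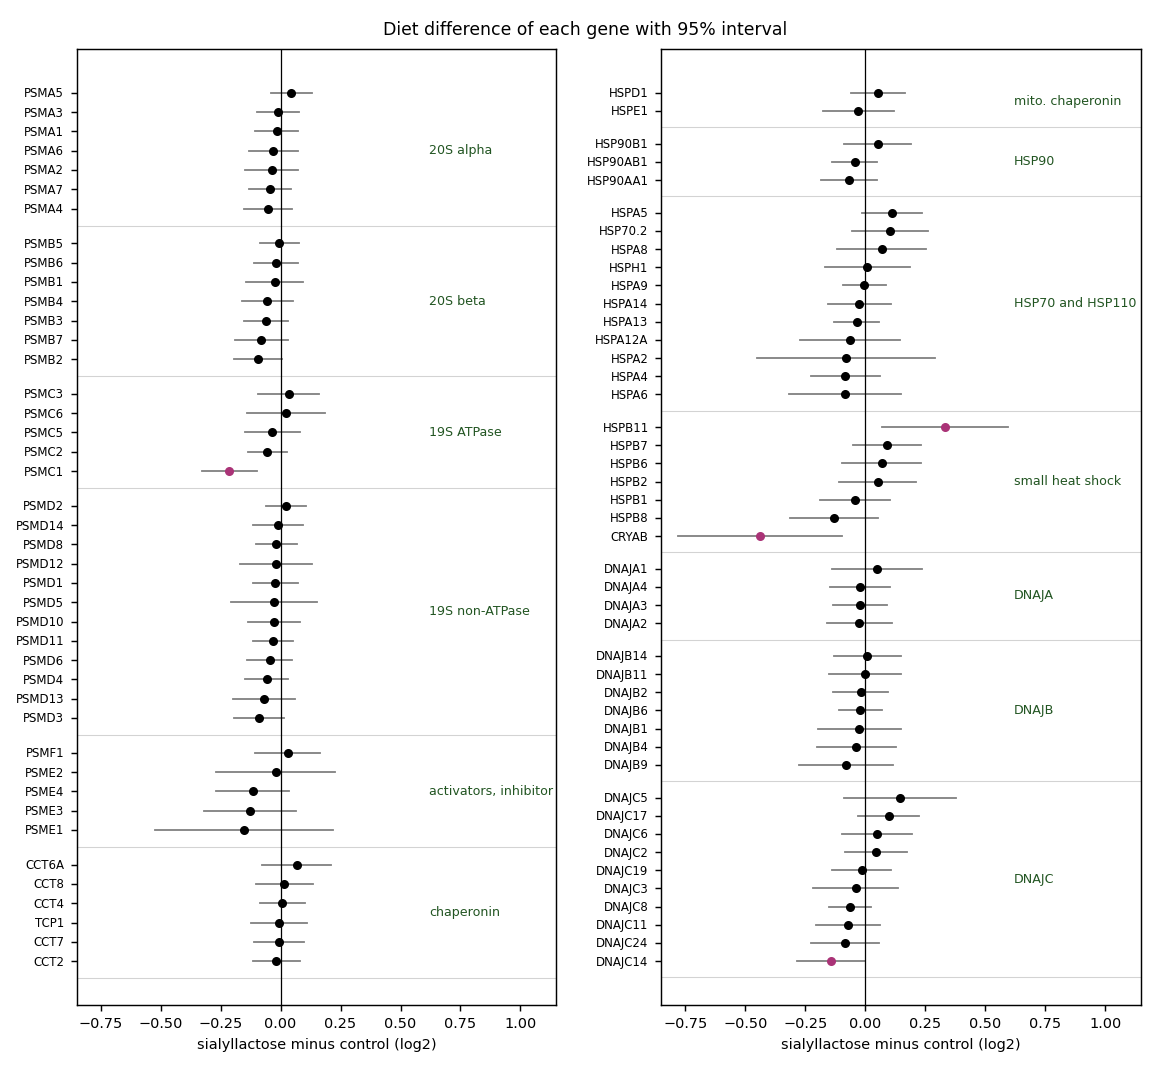
Difference between the diets for each tested gene by family, sialyllactose minus control on the log2 scale (points), with 95% intervals from limma (lines); purple points mark the 4 genes at an unadjusted p under 0.05, and HSPBP1 is not drawn. Nearly all points lie close to 0; CRYAB (-0.44) and HSPB11 (0.33) lie farthest from it and have wide intervals, and PSMC1 (-0.21) is the proteasome subunit farthest from 0.

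The 20S core differed little between the diets. All 7 measured beta subunits had lower means with sialyllactose (6 of 7 with arrays centred or quantile normalized) and 6 of 7 alpha subunits did (4 and 5), with median differences of -0.06 and -0.03 (with arrays centred -0.04 and -0.01, and quantile normalized -0.03 and -0.02). The largest belonged to PSMB2, a beta subunit without a cutting site. It ran from 6.82 over a median of 6.97 to 7.09 in control and from 6.65 over 6.89 to 6.97 with sialyllactose. The groups overlapped over most of their range, and 8 of 9 sialyllactose retinas lay below the control median (difference -0.09, 95% interval -0.20 to 0.01, limma adjusted p = 0.783). Sialyllactose replicate 8 was the lowest of all, and the difference was -0.07 at its smallest when 1 retina was left out.

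The 3 subunits that cut proteins were measured at nearly equal levels in both groups. PSMB5, the chymotrypsin-like subunit, was at 6.95 ± 0.06 in control and 6.94 ± 0.03 with sialyllactose. PSMB6, the caspase-like subunit, was at 6.95 ± 0.09 and 6.93 ± 0.05. PSMB7, the trypsin-like subunit, was at 6.69 ± 0.12 and 6.61 ± 0.09, a difference of -0.08 (95% interval -0.19 to 0.03). PSMA1, an alpha subunit, was at 5.77 ± 0.07 and 5.75 ± 0.07. The sign for PSMB5 turned under both other scalings (0.01 with arrays centred on their median) and that for PSMA1 with centring (0.002), and the intervals of these 4 genes all held 0.

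In the 19S cap, PSMC1, an ATPase of the ring that unfolds substrates, had the smallest p of all 87 genes. Its level ran from 6.09 over a median of 6.28 to 6.43 in control and from 5.93 over 6.09 to 6.24 with sialyllactose. Every sialyllactose retina lay below the control median, while the ranges of the groups overlapped. The difference was -0.21 (95% interval -0.33 to -0.10, fold 0.863, limma adjusted p = 0.691), and it lay between -0.24 and -0.19 when any 1 retina was left out. Among the other ATPases, PSMC2, PSMC5, PSMC6 and PSMC3 differed by -0.06, -0.03, 0.02 and 0.03, each with an interval that held 0, and the contrast with PSMC1 was not tested. PSMC1 was measured by 1 probe set.

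Of the 12 measured genes counted as non-ATPase subunits of the cap, 11 had lower means with sialyllactose (10 under each of the other scalings). None passed the test. PSMD3, a scaffold subunit, was at 5.25 ± 0.10 in control and 5.17 ± 0.09 with sialyllactose (difference -0.09, 95% interval -0.19 to 0.02). PSMD4, a receptor for ubiquitin chains, was at 6.84 ± 0.09 and 6.79 ± 0.03. PSMD14, the enzyme that removes ubiquitin before breakdown, was at 6.36 ± 0.10 and 6.35 ± 0.08, and its sign turned with arrays centred or quantile normalized. PSMD5 and PSMD10, which help to assemble the cap and are counted here by their symbols, differed by -0.03 each.

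The 4 activators that open the core at its ends had a median SD between retinas of 0.24, against 0.09 over the subunits of the core and cap. PSME1 and PSME2 form the PA28 activator, which interferon induces. PSME1 ran from 4.40 over a median of 4.81 to 5.42 in control and from 4.15 over 4.53 to 5.51 with sialyllactose. PSME2 ran from 4.36 over 4.53 to 5.03 and from 4.23 over 4.54 to 5.14. In both genes the sialyllactose group held the highest and the lowest retina. Their differences were -0.15 (95% interval -0.52 to 0.22) and -0.02 (-0.27 to 0.23), with limma adjusted p = 0.918 and 0.993. PSME4, the activator PA200 of the nucleus, was at 4.41 ± 0.14 and 4.29 ± 0.18, a difference of -0.12 (95% interval -0.27 to 0.04). PSMF1, an inhibitor of the core, was at 3.88 ± 0.15 and 3.91 ± 0.12.

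The chaperonin TRiC was measured through 6 of its subunits, and CCT5 had no named probe set. Of these subunits 3 had lower and 3 higher means with sialyllactose, a split that became 0 and 6 with arrays centred on their medians and 1 and 5 after quantile normalization. TCP1 was at 6.67 ± 0.14 in control and 6.66 ± 0.07 with sialyllactose, a difference of -0.01 (95% interval -0.13 to 0.11) whose sign turned under both scalings. CCT2 was at 7.11 ± 0.08 and 7.09 ± 0.09. The intervals of all 6 subunits held 0, and the widest, that of CCT6A, reached from -0.08 to 0.21. In the mitochondrial chaperonin, HSPD1 (HSP60, the barrel) was at 8.01 ± 0.14 and 8.07 ± 0.06, and HSPE1 (HSP10, its lid) at 7.63 ± 0.18 and 7.60 ± 0.12.

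The HSP70 class held genes with means in either direction. HSPA5 (BiP, the HSP70 of the endoplasmic reticulum) ran from 8.54 over a median of 8.78 to 8.88 in control and from 8.59 over 8.89 to 9.04 with sialyllactose. In 7 of 9 sialyllactose retinas it lay above the control median (difference 0.11, 95% interval -0.01 to 0.24, limma adjusted p = 0.787). HSPA8, the constitutive HSP70 of the cytosol, ran from 8.87 over 9.30 to 9.63 and from 9.14 over 9.44 to 9.58, with control replicate 9 the lowest of all 18. Its difference of 0.07 had an interval from -0.12 to 0.25, and of its 4 tested probe sets only the brightest was on the higher side. HSP70.2, an HSP70 gene that keeps its pig name in the annotation, was at 7.55 ± 0.22 and 7.66 ± 0.09. Leaving out control replicate 2 brought its difference from 0.10 to 0.05. HSPA9, the mitochondrial HSP70, was at 8.16 ± 0.06 and 8.16 ± 0.08, with no stable sign between scalings.

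HSPA4, which belongs to the HSP110 exchange factors, was lower than the control median in all 9 sialyllactose retinas, although its means of 6.49 ± 0.19 and 6.40 ± 0.09 differed by only -0.08 (95% interval -0.23 to 0.06). It was lowest of all in a control retina, replicate 9. It is named for that count after its values were seen. HSPH1 (HSP105, of the same class) was at 7.14 ± 0.24 and 7.15 ± 0.12. HSPA2 and HSPA6 lay near the floor at 2.02 ± 0.45 and 1.94 ± 0.40, and at 1.84 ± 0.32 and 1.75 ± 0.18, and the signs of both turned when a single retina was left out. Of 11 genes of the HSP70 and HSP110 classes, 7 had lower means (6 under each of the other scalings). The cytosolic HSP90 genes HSP90AA1 (11.3 ± 0.08 and 11.2 ± 0.13) and HSP90AB1 (8.46 ± 0.07 and 8.42 ± 0.08) and HSP90B1 (GRP94, of the endoplasmic reticulum; 8.12 ± 0.17 and 8.17 ± 0.09) had intervals that held 0.

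The small heat shock proteins included the members with the largest differences in either direction. CRYAB ran from 5.83 over a median of 6.54 to 7.24 in control and from 5.53 over 5.93 to 6.44 with sialyllactose. In control, 5 retinas lay above the whole sialyllactose range and 4 within it. The difference was -0.44 (95% interval -0.78 to -0.10, fold 0.737, limma adjusted p = 0.753), and it ran from -0.51 to -0.33 when any 1 retina was left out. HSPB11 is classed by its symbol with this family and is a subunit of the transport train in cilia (IFT25). It ran from 3.08 over 3.83 to 4.36 in control and from 3.86 over 3.97 to 4.30 with sialyllactose. The sialyllactose retinas lay close together, and 3 control retinas lay well below them, at 3.08 to 3.32. The difference was 0.33 (95% interval 0.07 to 0.59, fold 1.26, limma adjusted p = 0.753).

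The other small heat shock genes differed less. HSPB1 (HSP27) was at 4.63 ± 0.10 in control and 4.59 ± 0.18 with sialyllactose, and HSPB7 at 3.16 ± 0.15 and 3.25 ± 0.14. Of 7 tested genes in the family, 3 had lower and 4 higher means under all 3 scalings. None of the tested cell type markers passed the adjusted test. Means were lower, as for CRYAB, in several lists: 8 of 10 tested Mueller glia markers had lower means with sialyllactose (7 under each of the other scalings), and their mean deviation per retina was -0.10 to 0.17 in control and -0.22 to 0.13 with sialyllactose. Of 5 tested astrocyte and glial stress genes 3 had lower means, GFAP among them, and their mean deviation was -0.18 to 0.28 and -0.35 to 0.09. Endothelium and pericyte markers had lower means in 9 of 9 genes (7 under each of the other scalings), with a median difference of -0.16, and pigment epithelium and microglia markers in 3 of 4 each (2 of 4 for microglia with arrays centred). Among neuron markers, means were lower in 2 of 2 bipolar and horizontal, 4 of 5 amacrine, 2 of 4 ganglion, 1 of 2 rod and 0 of 4 cone genes. Of all tested named genes 56.7% had lower means. The part of these cell types in the CRYAB difference was not tested.

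**Figure D2:**
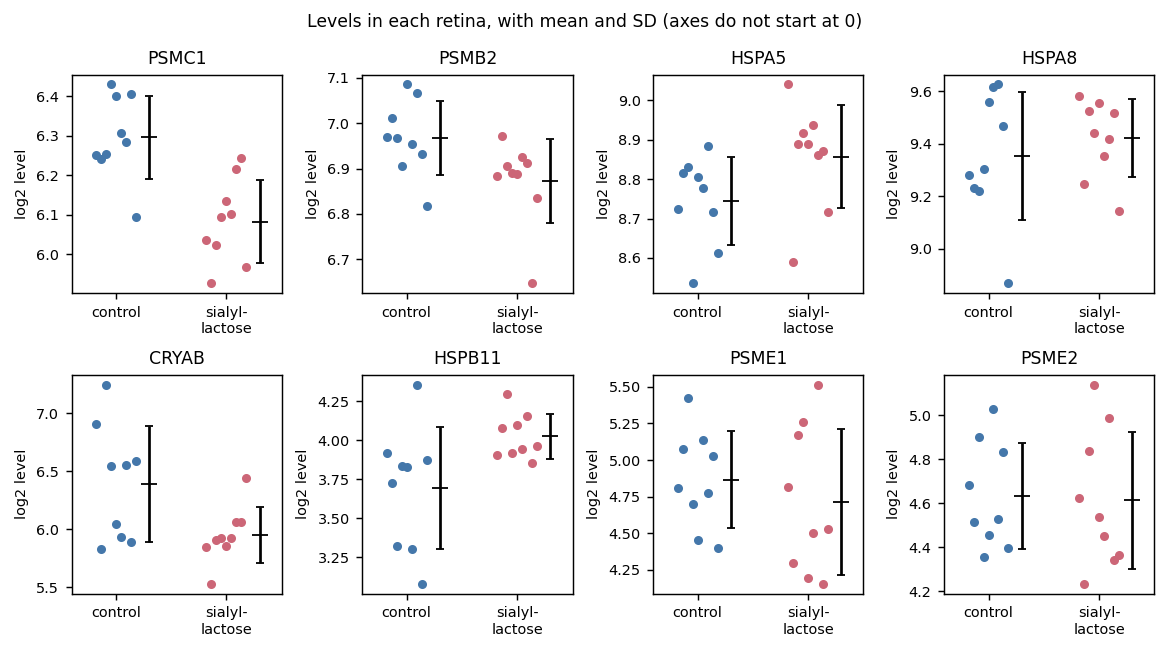
Log2 level in each of the 18 retinas for 8 genes (points, blue for control and red for sialyllactose), with mean and SD bars beside them; the axes do not start at 0 and differ between genes. PSMC1 and CRYAB sit lower and HSPB11 higher with sialyllactose, with overlap in each, while PSME1 and PSME2 have both their highest and their lowest retina in the sialyllactose group and HSPA8 has 1 low control retina (8.87).

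The J-domain proteins, which hand substrates to HSP70, had 21 tested genes in 3 classes, 15 of them with lower means (13 and 12 under the other scalings). DNAJC14, a membrane protein of the endoplasmic reticulum, ran from 4.73 over a median of 4.82 to 4.98 in control and from 4.45 over 4.64 to 4.99 with sialyllactose. Its highest retina of all was a sialyllactose retina, and 6 of 9 lay below the control median (difference -0.14, 95% interval -0.28 to -0.003, limma adjusted p = 0.779). DNAJC5 (cysteine string protein, a chaperone of synaptic vesicles) was at 3.50 ± 0.27 and 3.65 ± 0.25. Leaving out sialyllactose replicate 9 brought its difference from 0.14 to 0.10. DNAJC6 (auxilin, which strips clathrin from vesicles) was at 7.63 ± 0.18 and 7.68 ± 0.11. DNAJC17, a splicing factor, was at 3.36 ± 0.13 and 3.46 ± 0.12. The HSP70 partners DNAJA1 and DNAJB1 were at 7.17 ± 0.24 and 7.22 ± 0.16 and at 4.77 ± 0.20 and 4.75 ± 0.17.

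Genes that work with these families also gave no call in limma. Both measured immunoproteasome genes had higher means with sialyllactose, PSMB8 at 1.54 ± 0.23 in control and 1.72 ± 0.37 and PSMB10 at 4.09 ± 0.21 and 4.13 ± 0.24. Of 18 tested cochaperones of HSP70 and HSP90, not counting the member HSPBP1, 13 had lower means (9 under each of the other scalings). STIP1, which bridges HSP70 and HSP90, was at 6.95 ± 0.14 and 6.82 ± 0.09, a difference of -0.12 (95% interval -0.25 to -0.002, limma adjusted p = 0.779), and TTC1 at 5.75 ± 0.17 and 5.65 ± 0.05. Of 11 ubiquitin and segregase genes 6 were lower (5 and 6), with UBE2K, a ubiquitin conjugating enzyme, at 4.81 ± 0.10 and 4.70 ± 0.11 and NSFL1C, a cofactor of the segregase VCP, at 5.51 ± 0.12 and 5.60 ± 0.10. Lower means were found in 2 of 6 genes of proteasome assembly (2 and 2), 7 of 11 prefoldin and chaperonin cofactor genes (5 and 5), 7 of 14 folding genes of the endoplasmic reticulum (6 and 6) and 3 of 5 mitochondrial folding genes (3 and 3).

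The second comparison set the families side by side in level and in spread between retinas. Mean log2 levels ran from 4.21 to 8.66 over the 31 proteasome subunits, from 3.12 to 4.79 over the activators and inhibitor, from 6.22 to 7.85 over the chaperonin and from 8.14 to 11.3 over HSP90. They ran from 1.80 to 9.39 over the HSP70 and HSP110 classes, from 1.70 to 6.17 over the small heat shock proteins and from 2.34 to 7.65 over the J-domain proteins. Brightness also depends on each probe set, so no order between genes was read from these ranges. The SD between retinas of the same diet had a median of 0.09 over the proteasome subunits and 0.14 over the chaperones, against 0.14 over all tested named genes and 0.12 over genes of similar level. The last set, at 4.69 to 7.12, was not matched to each family. The median level was 6.65 over the proteasome subunits and 5.61 over the chaperones, so these SDs are not compared at equal level. The activators together with the inhibitor had a median SD of 0.21. The 6 members with the largest SD were HSPA2 (0.42), PSME1 (0.42), CRYAB (0.39), HSPB11 (0.30), PSME2 (0.28) and HSPA6 (0.26). Apart from CRYAB, with a mean of 6.17, they had mean levels under 5 on the log2 scale.

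The third comparison asked whether members of a family varied together between retinas. Pearson's r was taken over the 18 retinas after each diet's mean had been removed, and family values are descriptions without a test. Over all pairs of tested named genes the median r was 0.008, with 3.50% of pairs above 0.5. Over genes of similar level to the members these were 0.034 and 4.79%. Over all 3741 pairs of members the median was 0.081, and 306 pairs (8.18%) lay above 0.5.

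The chaperonin had a median r of 0.50 over 15 pairs, of which 8 were above 0.5 and none below 0. Control replicate 9 was the lowest retina in 5 of its 6 subunits (all but CCT6A). In that retina TCP1 was at 6.38, CCT2 at 6.91 and CCT4 at 7.68. Without it the median r was 0.18, below the 0.31 of the DNAJB class without the same retina, and with the actin 3' to 5' difference removed it was 0.39. Most genes counted as proteasome subunits, all but PSMD5 and PSMD10, are also built in fixed numbers into a complex. Over the proteasome subunits as counted, the median r was 0.16 over 465 pairs, with 10.8% above 0.5. Without control replicate 9 that median was 0.10. Within the 20S alpha and beta rings the medians were 0.22 and 0.22, within the ATPases 0.12 and within the non-ATPase subunits 0.057. The median of the alpha ring was 0.12 without sialyllactose replicate 4 and that of the beta ring 0.14 without control replicate 9.

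The heat shock and J-domain classes differed among themselves. The DNAJB class had a median r of 0.33 over 21 pairs, with 28.6% above 0.5, and the DNAJA and DNAJC classes had medians of -0.021 and 0.004. The HSP70 and HSP110 classes had a median of 0.006 and the small heat shock proteins 0.092. Between families, proteasome subunits and chaperonin had a median r of 0.26 over 186 pairs, which was 0.15 without control replicate 9. Proteasome subunits had medians of 0.10 with the J-domain proteins, 0.077 with the large heat shock proteins and -0.088 with the small ones. The chaperonin had medians of 0.23, 0.17 and -0.18 with the same 3 groups.

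**Figure D3:**
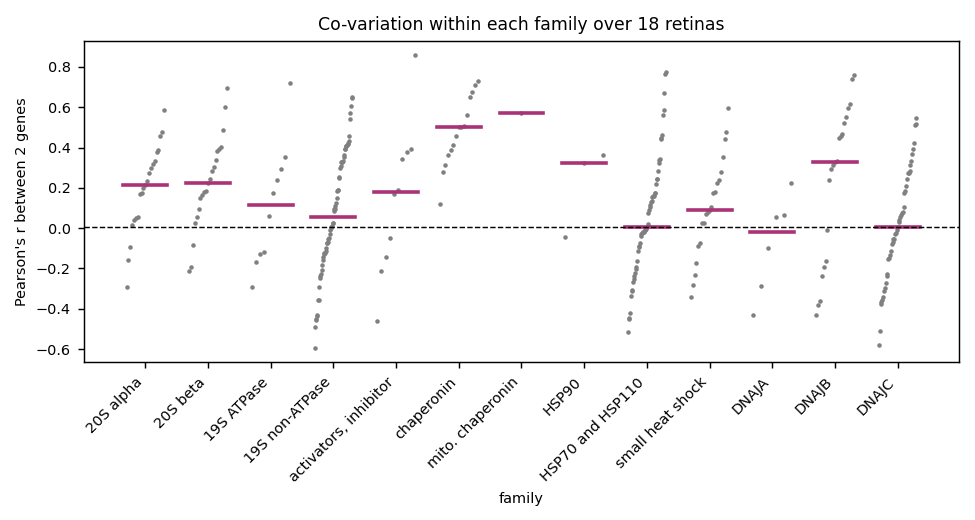
Pearson's r over 18 retinas with diet means removed for every pair of genes within a family (grey points, in rising order within a family), with the family median (purple bars); the dashed line is the median over all pairs of tested named genes, 0.008. All 15 chaperonin pairs lie above 0 around a median of 0.50, while pairs of the 19S non-ATPase, HSP70 and DNAJC classes spread on both sides of 0.

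**Figure D4:**
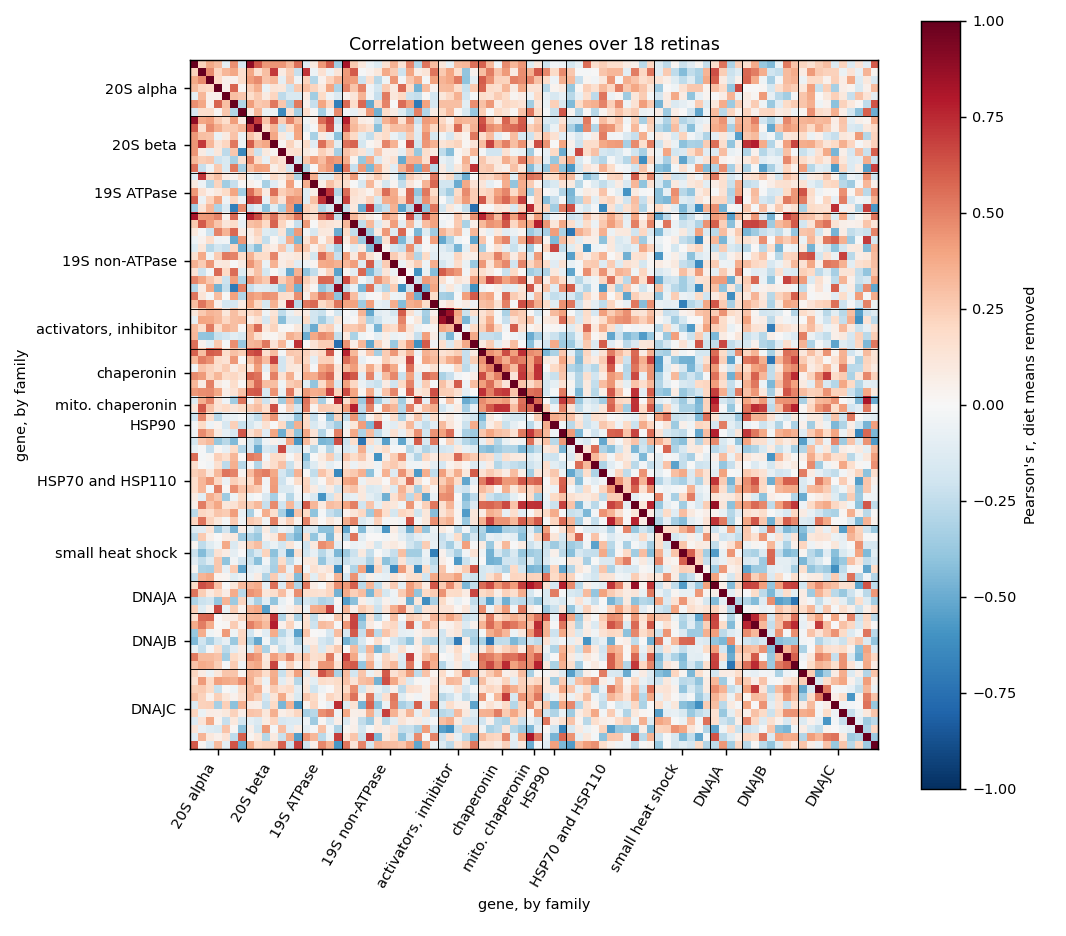
Pearson's r over 18 retinas with diet means removed between the 86 tested members in a family, ordered by family along both axes, from -1 (blue) to 1 (red). The chaperonin block and its crossings with the mitochondrial chaperonin and DNAJB are mostly red, the chaperonin with the small heat shock proteins is mostly blue (median -0.18), and the pair PSME1 and PSME2 stands out among the activators.

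Of 25 listed pairs, some of known partners and some across complexes or with glial, interferon and immediate early genes, 23 were measured, and 11 had a Benjamini-Hochberg adjusted permutation p under 0.05 for r (9 for Spearman's rho). Among HSP70 partners, HSPA8 and DNAJA1 had r = 0.87 and rho = 0.81 (permutation, adjusted p = 0.00023 and 0.00054), with r = 0.89 within control and 0.82 within sialyllactose, and 0.70 without the 2 retinas farthest in HSPA8. That relation was found between the brightest probe sets, and the other 7 combinations of their probe sets had r between -0.55 and 0.05. HSPA5 and HSP90B1, the HSP70 and HSP90 of the endoplasmic reticulum, had r = 0.60 and rho = 0.65 (permutation, adjusted p = 0.0165 and 0.0176), r = 0.53 without the 2 farthest retinas, and r = 0.56 with the other probe set of HSP90B1. Without sialyllactose replicate 2 their adjusted p was 0.0798.

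Within the complexes, PSMA1 and PSMB1, of the alpha and beta rings, had r = 0.89 and rho = 0.69 (permutation, adjusted p = 0.00034 and 0.0113), and 0.74 without the 2 farthest retinas. TCP1 and CCT2 had r = 0.73 and rho = 0.56 (permutation, adjusted p = 0.00207 and 0.0313), and 0.49 without the 2 farthest. Across complexes, CCT2 and PSMA1 had r = 0.59 and rho = 0.33 (permutation, adjusted p = 0.0252 and 0.267), but 0.10 without control replicate 9 and sialyllactose replicate 8, so that this relation rests on those retinas. PSMC1 and HSPA8 had r = 0.61 and rho = 0.49 (permutation, adjusted p = 0.0204 and 0.079), 0.28 where the diet means were left in, and 0.43 without control replicate 9 (permutation, adjusted p = 0.208).

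The pairs that did not pass included HSPD1 and HSPE1, neighbours in the genome that share a complex (r = 0.57, rho = 0.55, permutation, adjusted p = 0.0649 and 0.0572). They passed without control replicate 2 (r = 0.68, permutation, adjusted p = 0.0253) and without sialyllactose replicate 3 (r = 0.63, permutation, adjusted p = 0.0469). HSP90AA1 had r = 0.36 with HSP90AB1 and 0.013 with HSPH1. DNAJB1 had r = 0.44 with HSPA8 and 0.39 with HSPH1. In the proteasome, PSMB5 and PSMB6 had r = 0.15, and PSMC1 and PSMD14 had r = 0.11. HSPB1 and CRYAB had r = 0.18. The adjusted permutation p of these 7 pairs was at least 0.146.

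PSME1 and PSME2 varied with interferon genes. They had r = 0.86 and rho = 0.81 with each other (permutation, adjusted p = 0.00034 and 0.00103). ISG15, a ubiquitin-like protein induced by interferon, ran from 2.83 over a median of 4.20 to 6.47 in control and from 2.85 over 3.33 to 8.02 with sialyllactose. Its r was 0.86 with PSME1 and 0.92 with PSME2 (permutation, adjusted p = 0.00037 and 0.00023), with rho = 0.88 and 0.86, and 0.80 and 0.89 without the 2 farthest retinas. Within control the r values were 0.64 and 0.85, and within sialyllactose 0.95 and 0.95. PSMA4, a subunit of the core, had r = 0.35 and rho = 0.54 with ISG15 (permutation, adjusted p = 0.211 and 0.0558). Over all members, ISG15 had r above 0.5 with 3 genes, PSME1, PSME2 and HSP90B1 (0.63), and below -0.5 with 1, DNAJC5 (-0.70). Of all pairs of tested named genes, 3.50% lay above 0.5. HSP90B1 and DNAJC5 are named here for their r and carry no test. Of 15 tested interferon genes 4 had lower and 11 higher means with sialyllactose (3 and 12 under both other scalings).

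CRYAB varied with VIM, an intermediate filament gene from the Mueller glia list, with r = 0.66 and rho = 0.70 (permutation, adjusted p = 0.0151 and 0.0113). It was 0.58 without the 2 farthest retinas. Within control the r was 0.87 and within sialyllactose 0.26, a difference that was not tested. VIM was at 8.78 ± 0.24 in control and 8.51 ± 0.21 with sialyllactose. Against whole marker lists, the highest r of CRYAB were 0.47 with astrocyte and glial stress genes and 0.41 with Mueller glia. Those with immediate early genes and microglia followed at 0.39 and 0.36. These list values carry no test, so the relation with VIM is not assigned to 1 cell type. HSPB1 varied with GFAP, the filament of astrocytes and stressed Mueller glia, with r = 0.65 and rho = 0.70 (permutation, adjusted p = 0.00283 and 0.00773). CRYAB and GFAP had r = 0.42 and rho = 0.39 (permutation, adjusted p = 0.211 and 0.238). FOS, an immediate early gene, had r = 0.39 with CRYAB and -0.28 with HSPH1, and neither passed. Over all members, FOS had r above 0.5 with 3 genes and below -0.5 with 6. For EGR1, another immediate early gene, these counts were 0 and 10. They carry no test. Among all 3741 pairs of members 73 lay below -0.5, but those are pairs of another kind. The share of all tested named genes with such r to FOS or EGR1 is not given here, so the counts cannot be read as particular to the members.

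**Figure D5:**
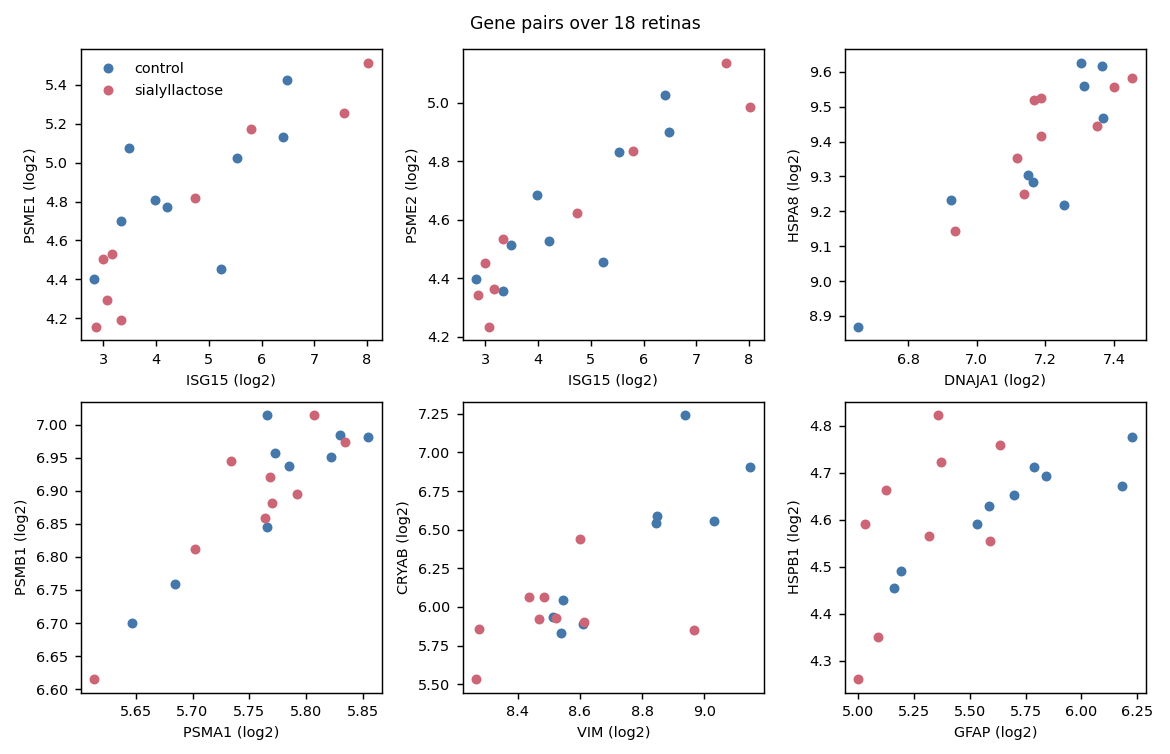
Log2 levels of 6 pairs of genes in the 18 retinas (blue, control; red, sialyllactose; diet means not removed; axes do not start at 0). PSME1 and PSME2 are higher where ISG15 is higher in both diets, HSPA8 with DNAJA1 includes 1 low control retina (8.87), and the 5 control retinas highest in CRYAB are also high in VIM.

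Among all pairs of members, the highest r belonged to PSMC6, an ATPase of the cap, and PSMD5, which assembles the ATPase ring (r = 0.89, rho = 0.66). Both were lowest in control replicate 2, at 6.64 and 3.57, the retina that stood apart over all genes, and r was 0.34 without the 2 farthest retinas and 0.15 within sialyllactose. PSMA1 and PSMD1 followed the pairs already named, with r = 0.83 and rho = 0.74. The lowest values belonged to PSMC6 and PSMF1 (r = -0.75, rho = -0.38, and -0.18 without the 2 farthest retinas), CCT4 and DNAJB2 (r = -0.73, rho = -0.72) and DNAJA3 and DNAJB9 (r = -0.73, rho = -0.78). These pairs were chosen for their r and carry no test. DNAJA1 had r above 0.5 with 22 other members, HSPA8, TCP1 and HSPE1 with 20 each, where 8.18% of all pairs of members lay above 0.5. Each of these genes was lowest of all in control replicate 9, and the part of that retina in the counts was not tested.

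Probe sets of 1 gene did not always vary together. For 22 members with more than 1 tested probe set, the 34 other probe sets had a median r of 0.23 with the brightest, from -0.36 to 0.79, with 10 above 0.5 and 11 below 0. In 9 of these 22 genes the diet differences of the probe sets had different signs. HSP90AA1 held the sign of its brightest probe set in 3 of 5, while PSMC2 and PSMD11 held it in 3 of 3 and DNAJB6 in 4 of 4. PSMC1, CRYAB and HSPB11 were each measured by 1 probe set, so their values could not be compared with another.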

How the data were processed

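Retinal RNA of 18 piglets, 9 per diet, was measured on 18 arrays. The authors deposited a table of log2 values for each probe set on each array, made with Affymetrix Expression Console and RMA per the submitters' processing notes. The settings are not given in the sources used here. RMA in general gives all arrays the same distribution, which hides shifts common to most genes. From 24123 probe sets, 124 controls and the dimmest 30% (7200) were left out, leaving 16799. Genes were named from the platform annotation; 88 of the 89 gene identifiers were found in a RefSeq table, with 0 symbols changed.

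Diets were compared with limma 3.58.1 in R 4.3.3 (lmFit and eBayes, no covariates, all 18 arrays, Benjamini-Hochberg over all tested probe sets, threshold 0.05). Pairs of genes were tested by 100000 two-sided permutations within diets. A mean deviation is the mean over a list of each retina's distance from the gene's mean. Each step was tested on simulated data. The number of arrays limits precision; the arrays give no read depth. Members and lists were chosen with earlier results of these data known. Named genes were the 6 with the smallest unadjusted p in each direction, the 6 with the largest SD within diets, 30 landmark genes where measured, the 5 highest and 3 lowest pairs, and up to 2 per pathway list. Of the landmarks, CCT5, HSPA1A and HSPA1L were not analysed here, since no probe set carried their symbol. Alternatives were other filters, scalings, weights, covariates and rank correlation, leaving out each array, and, added after the data were seen, the actin 3' to 5' difference.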

Additional observations from a re-analysis of the deposited data

Results flagged for a closer look

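Retinas far from the rest of their diet group were found in 10 of 100 groups of 9 tested with Dixon's criterion. For independent groups chance would give about 1 in 20, or 5. The groups here share retinas and genes, and some genes were named for their large SD, so the numbers cannot be compared directly. Control replicate 9 was lowest for CCT2 at 6.91 (the next control retina at 7.08) and for HSPH1 at 6.58 (next 7.03), and its mean deviation was lowest for the 20S alpha subunits at -0.081 and for the DNAJA class at -0.18. That retina also had the highest actin 3' to 5' difference of the control group, 3.68. In sialyllactose replicate 3, where the actin difference was 3.80, CCT2 was highest of all retinas (7.21) and HSP90AA1 lowest (10.96). Sialyllactose replicate 8 was lowest for PSMB2 at 6.65 (next 6.83) and in its mean deviation for the 20S beta subunits at -0.13. Control replicate 2, which stood apart over all genes, was highest for HSPB7 at 3.51 (next 3.20) and for PSMF1 at 4.25 (next 3.93). Control replicate 3 was highest for HSPA6 at 2.59 (next 1.97), and sialyllactose replicate 4 for PSMD14 at 6.51 (next 6.39).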

How the results depend on the processing

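No member passed the adjusted test under any alternative run, and between 3 and 6 had an unadjusted p under 0.05. The lowest adjusted p ran from 0.556 to 0.875 when any 1 array was left out. Same-numbered arrays of the diets had correlations of their deviations from -0.11 to 0.16, above 0.1 in 3 of 9. These were not set against differently numbered arrays, so they cannot decide whether replicate numbers pair the samples. With the replicate number as a block, 0 members passed and the median r within families was -0.056 for the 20S alpha subunits, -0.076 for the 19S ATPases, 0.20 for the large heat shock proteins and 0.32 for the small ones. The median r of the large heat shock proteins was 0.016 after quantile normalization, and that of the DNAJA class was -0.24 as Spearman's rho. The median r of the chaperonin ran from 0.18 to 0.53 without single arrays. Over all tested named genes it was 0.0054 with no filter on dim probe sets, 0.0043 after quantile normalization and 0.015 with a 50% filter. The causes of these shifts were not tested. Of the fixed pairs, PSMC1 with HSPA8 no longer passed with the first principal component removed (r = 0.49) or the actin difference removed (r = 0.53), nor without control replicate 9 (r = 0.43). CRYAB with GFAP passed with the diet means left in (r = 0.59, permutation, adjusted p = 0.0197).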
